A study of Mus musculus with 8 samples.

Results

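The proteasome subunit genes were the rows of the deposited gene table whose symbol is Psma, Psmb, Psmc, Psmd, Psme, Psmf or Psmg followed by a number. The rule uses the gene name and no measured value. There were 48 such genes on 49 of the table's 17922 rows, which hold 17738 symbols, Psmb9 standing on 2 rows. The study followed the reprogramming of C57BL/6 mouse embryonic fibroblasts (MEFs), taken from embryos at day 13.5, into induced pluripotent stem cells (iPSCs). The fibroblasts came from tetO-OSKM mice, which carry doxycycline-inducible copies of the reprogramming factors, so every group shared this transgene. The 4 long RNA libraries were MEFs at day 0, cells at day 3 and at day 6 after doxycycline, and fully reprogrammed iPSCs. The labels place induction in serum-replacement medium with LIF and CHIR99021, and do not give the medium of the MEFs or of the iPSCs. The labels do not say whether the iPSCs were 1 clone or several.

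Each group had 1 library, so differences have no replicate check and none was tested. Values are FPKM, fragments scaled to gene length and library size, so they are shares of a library and not molecules per cell. In such bulk samples, fewer cells of a type and less RNA per cell cannot be told apart. Differences are on the scale log2(FPKM + 1). A gene was called higher or lower where the difference was at least 1, a 2-fold change, and at least 1 FPKM was reached in the higher library. The columns summed to between 438130 and 486609 FPKM, and the spacing of the lowest values put day 3 at 0.645 of the sequencing depth of MEFs. All 7 pluripotency markers were above 1 FPKM in iPSCs, where their sum was 1826 FPKM against 1.29 in MEFs. The 8 fibroblast markers summed to 3066 FPKM in MEFs and 28.6 in iPSCs. Markers of macrophages and leukocytes, 14 in number, summed to 104 FPKM in MEFs, 79.4 on day 3, 89.8 on day 6 and 14.5 in iPSCs, where 5 of them, among them Ptprc and Tyrobp, were listed at 0. Of 5 endothelial markers, 0 reached 1 FPKM in MEFs and 2 did in iPSCs, Pecam1 and Tek.

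The 26S proteasome degrades proteins tagged with ubiquitin. Its 20S core is a barrel of outer alpha rings, which gate the entrance, and inner beta rings, which hold the cutting sites of Psmb5, Psmb6 and Psmb7. The 19S regulatory particle caps the barrel. Its base, built on the Psmc ATPases, unfolds the substrate, and its lid removes the ubiquitin. In cells exposed to interferon, Psmb8, Psmb9 and Psmb10 replace the catalytic subunits to give the immunoproteasome, which serves antigen presentation. Psme1 and Psme2 form the activator PA28, Psme3 and Psme4 are activators found mostly in the nucleus, and Psmf1 encodes the inhibitor PI31. Psmg1 to Psmg4 encode the chaperones that assemble the core, and Psmd5, Psmd9 and Psmd10 those that assemble the base. Pluripotent cells are known for high proteasome activity.

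Proteasome genes were abundant and differed little between stages beside the transcriptome as a whole. Of the 48, 47 reached 1 FPKM in at least 1 library, and 40 stayed at 10 FPKM or more in all 4, as did 26.4% of all rows. The exception was Psmb11, the thymus-specific catalytic subunit, which stayed between 0.00372 and 0.0186 FPKM. Summed over the genes, the proteasome took 0.605% of the FPKM of MEFs, 0.608% on day 3, 0.680% on day 6 and 0.864% in iPSCs. The share was thus nearly equal in the first pair of libraries and highest in iPSCs. Between iPSCs and MEFs, 3 of 47 genes compared were higher and 1 was lower (8.51%), where 46.0% of all 12937 rows compared passed the rule in either direction. Higher calls made up 21.1% and lower calls 25.0% of all rows. The higher genes were Psmg1, Psmg4 and Psma8, and the lower one was Psmb8. Against day 6 the same 3 genes were higher and 0 were lower, a share of 6.38% against 43.8% of all rows (20.4% higher and 23.4% lower). Among genes at 10 FPKM or more in iPSCs or MEFs, 2 of 41 passed between these libraries (4.88%), against 48.0% of 7979 rows.

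**Figure D1:**
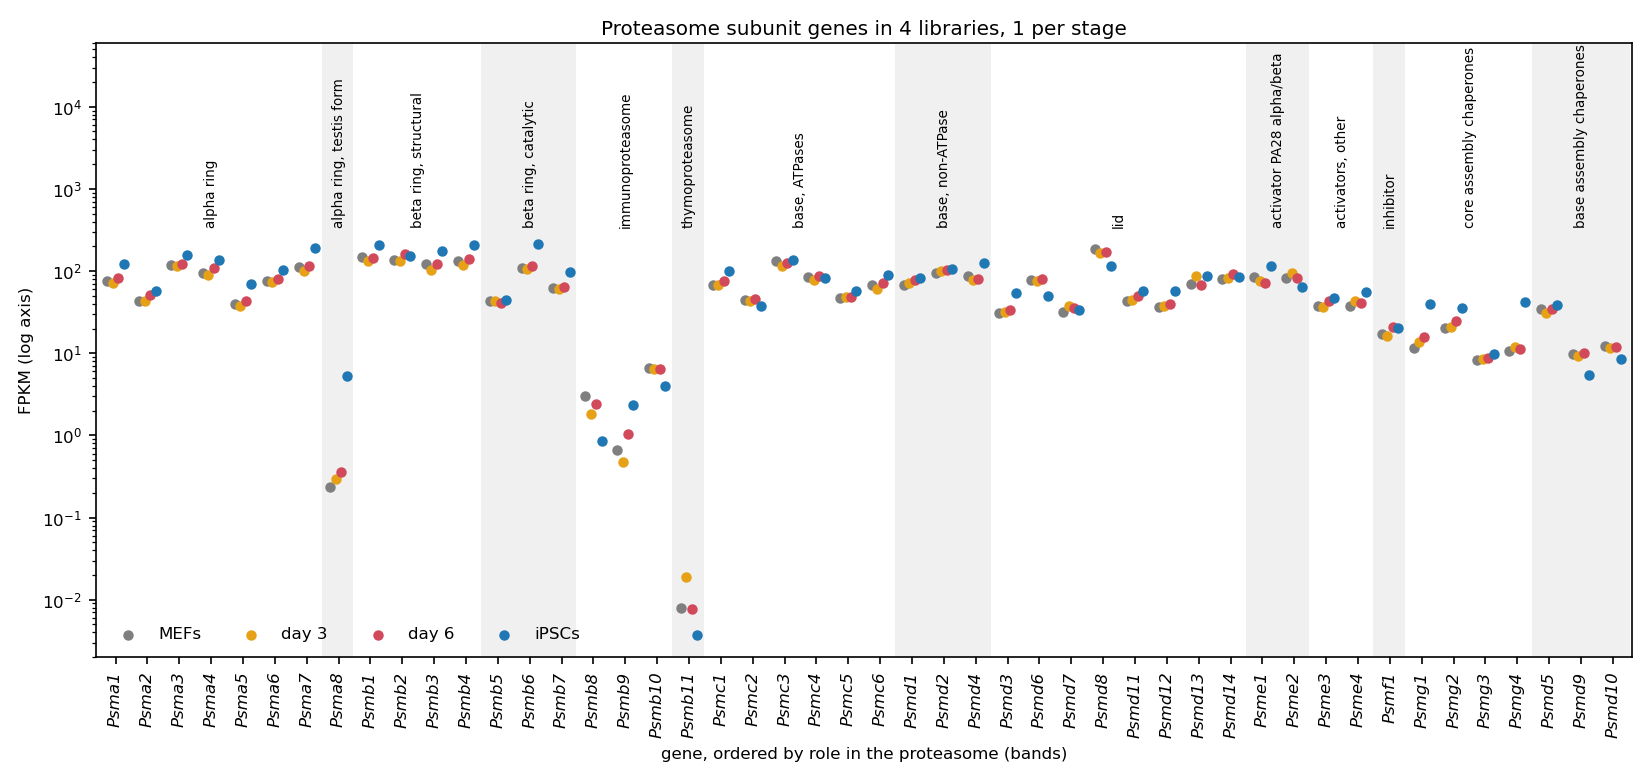
FPKM on a log axis of each of the 48 genes in the 4 libraries (1 point per library), ordered by role. Most genes sit between 10 and 213 FPKM with the 4 points close together. The immunoproteasome genes, Psma8 and Psmb11 lie lower, and the iPSC points of Psma8, Psmg1 and Psmg4 stand apart from the other points of their gene.

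The direction of the small differences was mostly upward in iPSCs. The median difference from MEFs was 0.40 over the 47 genes and -0.05 over all rows compared. In all, 38 of 47 genes were above their MEF value (80.9%), against 48.6% of all rows. The interquartile range of the genes ran from 0.08 to 0.62, a width of 0.54, and that of all rows was 1.84 wide. With 1.5-fold in place of 2-fold, 13 genes were higher (27.7%, against 31.5% of all rows) and 5 lower (10.6%, against 34.7%), in all 38.3% against 66.2%. Against day 6 the same rule gave 11 higher and 3 lower, in all 29.8% against 64.6% of all rows (31.2% higher and 33.4% lower). Against day 6 as well, 34 of 47 genes were above by any amount, against 49.1% of all rows. Rescaling the libraries to the same upper quartile moved the median of all rows to 0.11 and that of the proteasome genes to 0.56, so that the distance between them was 0.44 before and 0.45 after. Under each of 3 rescalings 39 of the 47 were above MEFs. Subunits of 1 complex are not independent of each other, so these counts describe the set and carry no error.

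**Figure D2:**
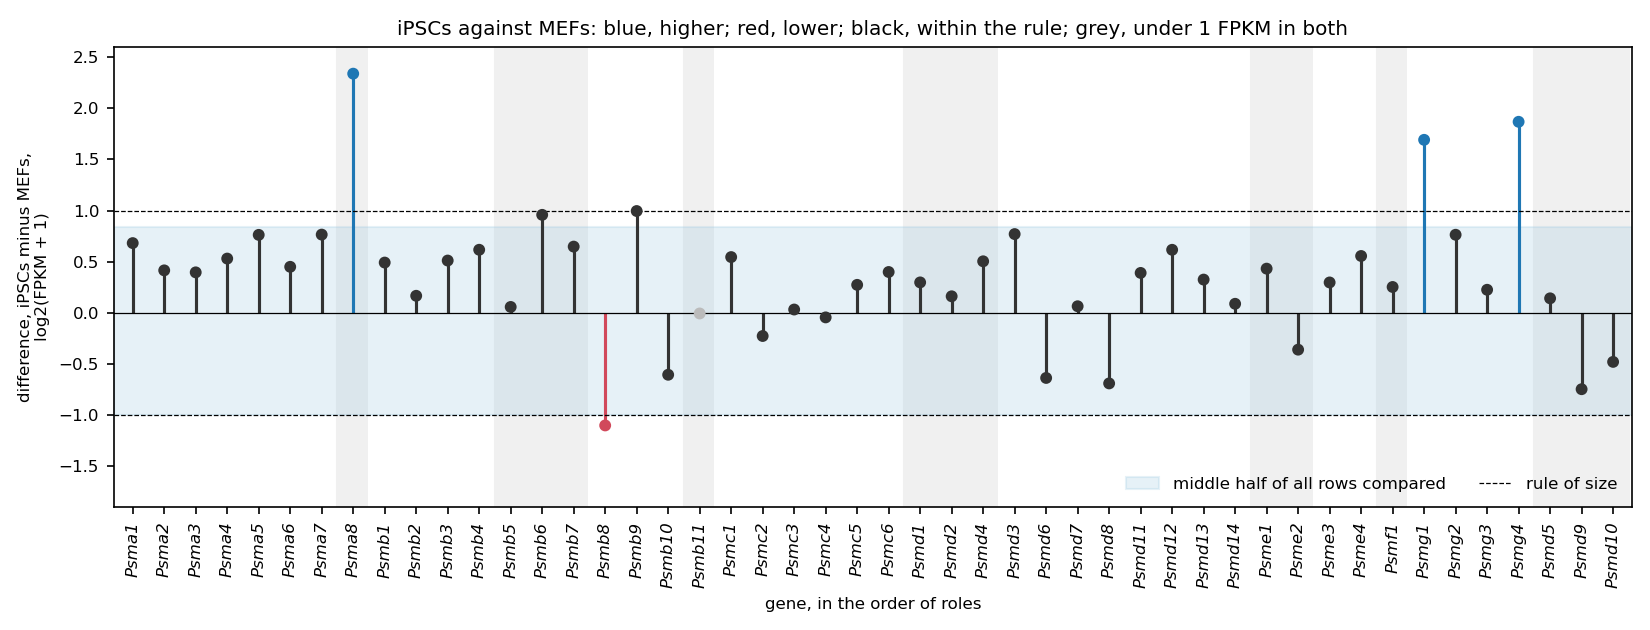
Difference between iPSCs and MEFs on the log2(FPKM + 1) scale for each gene, in the order of roles, with the rule of size as dashed lines and the interquartile range of all rows as a blue band. Psma8 (2.34), Psmg4 (1.87) and Psmg1 (1.69) pass the upper line and Psmb8 (-1.10) the lower, while Psmb9 (0.996) and Psmb6 (0.96) end just under the upper line.

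All 7 alpha ring genes were above MEFs in iPSCs, by 0.40 to 0.77 (median 0.53), and none passed the rule. Psma7, a subunit that also has a testis-specific relative, was at 111 FPKM in MEFs, 100 on day 3, 116 on day 6 and 190 in iPSCs. Psma5 was at 40.2, 37.2, 43.2 and 68.9 FPKM in the same order, and Psma1 at 75.2, 72.0, 82.1 and 121. In each of these 3 genes the first 3 libraries lay close together and the iPSC library above them. The smallest difference was that of Psma3, with 118 FPKM in MEFs and 156 in iPSCs. Psma2, Psma4 and Psma6 ranged from 43.2 to 138 FPKM over the libraries, each highest in iPSCs. Psma8, the relative of Psma7 that is known from the testis, was at 0.233 FPKM in MEFs, 0.298 on day 3, 0.357 on day 6 and 5.24 in iPSCs. Its iPSC value was 22.5 times its MEF value, from a base under 1 FPKM where single values are imprecise. Even so, Psma8 reached only 2.75% of the FPKM of Psma7 in iPSCs, against 0.209% in MEFs.

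The 4 structural beta ring genes, Psmb1 to Psmb4, were among the most abundant of the set and stood within a 1.22-fold range of each other in MEFs. Psmb1 was at 149, 132, 146 and 210 FPKM in the MEF library, on day 3, on day 6 and in iPSCs. Psmb4 was at 133, 119, 139 and 205 FPKM, and Psmb3 at 122, 104, 122 and 174. Psmb2 departed from its neighbours, with 135, 133, 160 and 152 FPKM, with its highest value in the day 6 library. Psmb2 was the single core gene of 14 not highest in iPSCs.

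The 3 constitutive catalytic genes differed from each other. Psmb6, which carries the caspase-like site, was at 109 FPKM in MEFs, 107 on day 3, 114 on day 6 and 213 in iPSCs. Among the 26S genes with a Psm symbol, it was the most abundant in iPSCs and the 9th in MEFs. Psmb7, which carries the trypsin-like site, was at 62.5, 59.8, 64.4 and 98.5 FPKM. Psmb5, which carries the chymotrypsin-like site, was nearly level at 42.6, 42.9, 41.3 and 44.4 FPKM. The differences between iPSCs and MEFs were 0.96 for Psmb6, 0.65 for Psmb7 and 0.06 for Psmb5, the smallest of the 14 core genes. The spread of the 3 levels, 2.56-fold in MEFs, was 4.81-fold in iPSCs. Copies of Psma5, Psmb5, Psmb6 and Psmb7 that are listed as pseudogenes in RefSeq could share reads with these genes, and the labels do not state how the authors' counting divided such reads.

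The immunoproteasome genes were low in all libraries. Psmb8 was at 2.98 FPKM in MEFs, 1.81 on day 3, 2.42 on day 6 and 0.854 in iPSCs, lowest in iPSCs with a difference of -1.10 from MEFs. Psmb10 was at 6.68, 6.36, 6.48 and 4.05 FPKM, also lowest in iPSCs, with a difference of -0.61 that did not pass the rule. Psmb9 went the other way, with 0.667, 0.475, 1.05 and 2.32 FPKM and a difference of 0.996. These are values of its higher row. The other row held 0.329, 0.0345, 0.180 and 0.371 FPKM. The identifiers of both rows were missing from the reference table of gene names, which held those of the other 47, so the values of Psmb9 are the least certain of the set. With each of 3 rescalings Psmb9 passed the rule as higher, and so did Psmb6. Psmb8 no longer passed with a pseudocount of 5 FPKM.

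Ratios within a library do not depend on how libraries are scaled to each other. Psmb8 stood at 6.98% of the FPKM of Psmb5, the subunit it replaces, in MEFs, at 4.22% on day 3, 5.85% on day 6 and 1.92% in iPSCs. Psmb10 stood at 10.7%, 10.6%, 10.1% and 4.11% of Psmb7. Both ratios were thus lowest in iPSCs. Psmb9 stood at 0.610%, 0.445%, 0.923% and 1.09% of Psmb6. The iPSC value was the highest of these, but with 1 FPKM added to both genes day 6 (1.78%) stood above iPSCs (1.55%). Summed, the 3 immunoproteasome genes reached 4.81% of the 3 constitutive genes in MEFs, 4.13% on day 3, 4.53% on day 6 and 2.03% in iPSCs. Both parts of this ratio differed. The immunoproteasome sum was 10.3 FPKM in MEFs and 7.23 in iPSCs, and the constitutive sum 215 and 356. The order of Psmb8 over the libraries, MEFs above day 6, day 3 and iPSCs, was also that of the summed macrophage and leukocyte markers, at 104, 89.8, 79.4 and 14.5 FPKM. Of these 14 markers 13 were below their MEF value in iPSCs, and their part in the values of Psmb8 was not tested.

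Listed genes of antigen processing were mostly lower in iPSCs, and those of the interferon response were mixed. Of 10 genes of both kinds reported, 7 were lower than in MEFs (70.0%, against 25.0% of all rows) and 0 were higher (against 21.1%). Their median was -1.76. Of the interferon genes, Isg15 was lower, at 1.52 FPKM in MEFs and 0.0691 in iPSCs. Irf1 (7.83 and 10.9 FPKM) and Gbp2 (7.39 and 6.11) were within the rule. The list was chosen with earlier results of these data known, so its share is only a description of the genes listed. B2m, the light chain of MHC class I, was at 1478, 1223, 1310 and 42.3 FPKM in the MEF library, on day 3, on day 6 and in iPSCs. Tap2, a chain of the peptide transporter, was at 9.75, 11.8, 8.54 and 1.29 FPKM. Tap1, the other chain of the transporter, was within the rule at 9.42, 8.46, 13.7 and 10.4 FPKM. In the RefSeq annotation Tap1 lies between Psmb9 and Psmb8, and Tap2 is the coding neighbour of Psmb8 on its other side. Along this stretch of the MHC, Psmb9 and Tap1 were thus not lower in iPSCs, and Psmb8 and Tap2 were.

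Promoter sequence is given for Psmb5 and Psmb6, for their interferon-inducible counterparts Psmb8 and Psmb9, and for the called chaperones Psmg1 and Psmg4, as the 250 bases before the RefSeq start site on GRCm38.p6. Psmb5 and Psmb6 are shown because both hold the first motif while their differences in iPSCs were 0.06 and 0.96. Capitals mark matches, on either strand, to 4 motifs, which were the antioxidant response element core TGACNNNGC, the CCAAT box CCAAT, the interferon-stimulated response element GAAANNGAA and the gamma-activated site TTCNNNGAA.
Psmb5, chr14:54617996-54618245, strand -: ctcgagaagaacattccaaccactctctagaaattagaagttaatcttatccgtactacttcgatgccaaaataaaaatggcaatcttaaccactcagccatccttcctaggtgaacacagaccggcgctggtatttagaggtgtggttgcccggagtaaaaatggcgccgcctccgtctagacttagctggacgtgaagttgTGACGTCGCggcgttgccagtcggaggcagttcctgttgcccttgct
Psmb6, chr11:70525107-70525356, strand +: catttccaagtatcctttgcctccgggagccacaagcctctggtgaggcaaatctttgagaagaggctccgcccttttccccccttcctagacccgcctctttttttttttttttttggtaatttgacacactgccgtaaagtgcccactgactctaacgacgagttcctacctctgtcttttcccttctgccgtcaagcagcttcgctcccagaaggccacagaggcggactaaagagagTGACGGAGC
Psmb8, chr17:34197945-34198194, strand +: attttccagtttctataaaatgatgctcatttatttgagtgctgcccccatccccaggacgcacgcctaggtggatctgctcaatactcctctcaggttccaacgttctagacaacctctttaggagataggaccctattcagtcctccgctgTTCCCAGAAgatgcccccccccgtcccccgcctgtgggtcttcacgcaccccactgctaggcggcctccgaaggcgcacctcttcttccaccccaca
Psmb9, chr17:34187331-34187580, strand -: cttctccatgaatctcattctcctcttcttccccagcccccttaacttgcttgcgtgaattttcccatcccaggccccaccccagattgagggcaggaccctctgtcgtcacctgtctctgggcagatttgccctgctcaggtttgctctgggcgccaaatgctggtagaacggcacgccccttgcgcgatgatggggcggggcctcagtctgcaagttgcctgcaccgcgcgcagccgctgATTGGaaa
Psmg1, chr16:95990961-95991210, strand -: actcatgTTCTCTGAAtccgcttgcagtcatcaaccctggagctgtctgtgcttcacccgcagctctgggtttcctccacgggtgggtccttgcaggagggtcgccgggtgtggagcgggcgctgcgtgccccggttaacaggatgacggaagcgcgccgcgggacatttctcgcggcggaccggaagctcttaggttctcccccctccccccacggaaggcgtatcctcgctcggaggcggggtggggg
Psmg4, chr13:34162714-34162963, strand +: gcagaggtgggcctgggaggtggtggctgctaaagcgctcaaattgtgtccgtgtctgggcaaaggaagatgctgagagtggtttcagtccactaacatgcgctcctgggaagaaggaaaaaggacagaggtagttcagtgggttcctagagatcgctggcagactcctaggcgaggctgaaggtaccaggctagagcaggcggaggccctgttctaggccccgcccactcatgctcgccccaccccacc

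RefSeq promoters were matched for 40 of the 48 genes. The antioxidant response element core, the kind of site that NFE2L1 and NFE2L2 bind, was in the promoters of 5 of them (12.5%), Psmb5, Psmb6, Psmc6, Psmd9 and Psmd12, and in 10.2% of all 32851 promoters of that length. In iPSCs against MEFs these 5 genes differed by 0.06, 0.96, 0.40, -0.75 and 0.62. The CCAAT box was in 14 of 40 (35.0%) and in 33.8% of all promoters. Psmb9 held 1, on the reverse strand 8 bases before its start. The interferon-stimulated element was in 3 of 40 (7.50%) and in 7.13% of all, and the gamma-activated site in 2 of 40 (5.00%), Psmb8 and Psmg1, and in 7.02% of all. These shares of 40 count genes with the motif in any of their promoters, while the shares of all count promoters. Per promoter, the 43 promoters of these genes gave 11.6%, 32.6%, 6.98% and 4.65%, in the order named. The motifs were thus about as frequent in these promoters as in promoters at large, and Psmg4 held none of the 4 in this window.

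The base of the 19S particle differed less between iPSCs and MEFs than the core did, without a test. The 9 base genes had a median difference of 0.27 between iPSCs and MEFs, and 7 were above MEFs. Psmc1, an ATPase, was at 68.4, 66.8, 75.4 and 100 FPKM in the MEF library, on day 3, on day 6 and in iPSCs, the largest difference of the base (0.55). Psmc2 was at 43.9, 43.8, 45.2 and 37.4 FPKM, and Psmc4 at 84.7, 78.8, 86.6 and 82.1, the 2 base genes below MEFs. Psmd2, with Psmd1 a scaffold subunit of the base, was at 95.4, 99.1, 102 and 107 FPKM. Psmd4, a ubiquitin receptor, was at 87.8, 78.9, 81.0 and 125 FPKM, with iPSCs above the other 3 libraries. The ATPase Psmc3 stayed between 116 and 136 FPKM, Psmc5 between 46.7 and 56.7 and Psmc6 between 61.1 and 88.6, each highest in iPSCs.

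The 8 lid genes with a Psm symbol went in different directions. Among the 26S genes so named, Psmd8 was the most abundant in MEFs, at 188 FPKM. It stood at 166 on day 3, 169 on day 6 and 116 in iPSCs, where it was the 12th. Psmd6 was at 78.4, 75.1, 79.0 and 50.1 FPKM. These genes, both of the lid, had the lowest differences among the 31 constitutive 26S genes, -0.69 and -0.64. Psmd3 was at 31.2, 31.7, 33.5 and 53.9 FPKM and Psmd12 at 36.9, 37.6, 39.7 and 57.1, both highest in iPSCs (0.77 and 0.62). Psmd11, a lid subunit known for its high level in human embryonic stem cells, where FOXO4 regulates it, was at 43.5, 44.3, 50.2 and 57.4 FPKM, a difference of 0.39 that did not pass the rule. Psmd14, the enzyme that takes ubiquitin off the substrate, was at 80.6, 82.4, 93.3 and 85.8 FPKM, and Psmd7, its partner, at 31.8, 37.3, 35.1 and 33.3. The range from the lowest to the highest lid gene was 6.03-fold in MEFs and 3.49-fold in iPSCs.

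Within a library, the core stood highest over the regulatory particle in iPSCs. The geometric mean FPKM of the 14 constitutive core genes stood at 1.31 times that of the 17 genes of the 19S particle in MEFs, 1.24 on day 3, 1.33 on day 6 and 1.69 in iPSCs. Against the lid alone the ratio was 1.48, 1.34, 1.49 and 1.97, and against the base 1.17, 1.15, 1.21 and 1.47. The alpha to beta ring ratio was 0.747, 0.762, 0.789 and 0.790. Thus the core to cap ratios were highest in iPSCs. They were lowest on day 3 by a small margin, and the ring ratio also varied only a little, each with 1 library per stage. The median difference between iPSCs and MEFs was 0.52 for the core and 0.27 for the 19S genes. Across the 31 genes, the rank order of levels was close between MEFs and day 6 (Spearman 0.987) and less so between MEFs and iPSCs (0.848), a description across genes of 1 library each.

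**Figure D3:**
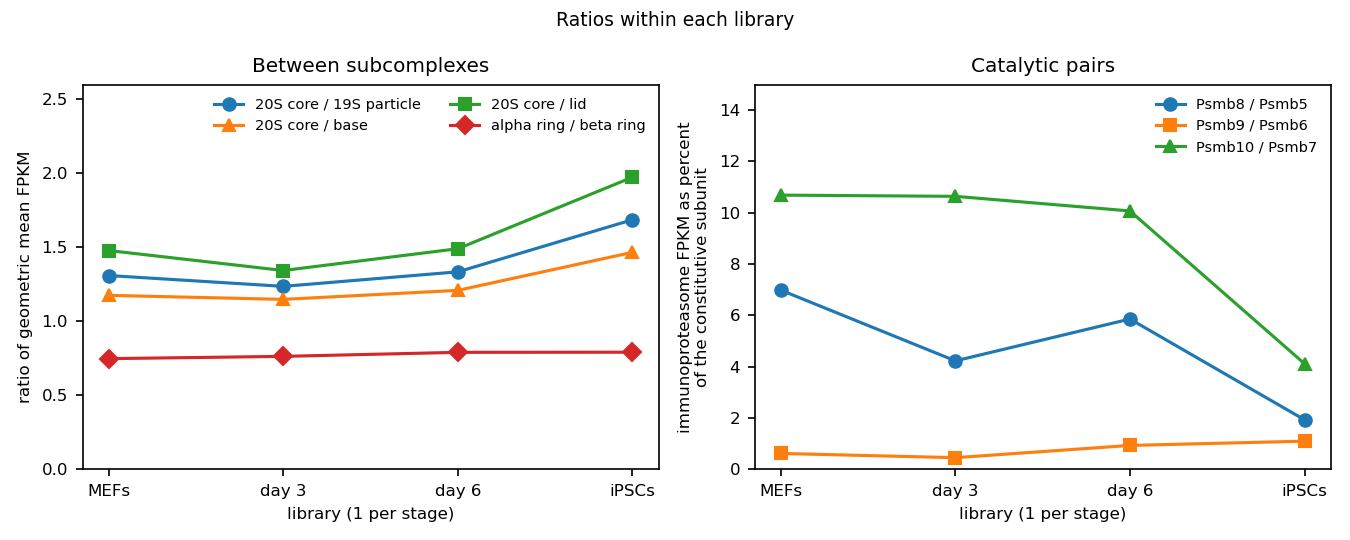
Left, ratios of geometric mean FPKM between subcomplexes in each of the 4 libraries. Right, FPKM of each immunoproteasome gene as a percent of the constitutive gene it replaces. The 20S core to lid ratio is 1.97 in iPSCs and 1.34 to 1.49 before, and the Psmb10 to Psmb7 ratio is 4.11% in iPSCs and above 10% before. Lines join stages and show no measured course between them.

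The core assembly chaperones held the strongest differences among well-expressed members. Psmg1 was at 11.7 FPKM in MEFs, 13.9 on day 3, 15.7 on day 6 and 39.9 in iPSCs. Psmg4 was at 10.7, 11.8, 11.2 and 41.7 FPKM. Both were higher in iPSCs, 3.42 and 3.90 times their MEF values. Their partners did not pass the rule. Psmg2, which pairs with Psmg1, was at 20.4, 20.9, 24.5 and 35.3 FPKM, and Psmg3, which pairs with Psmg4, at 8.28, 8.42, 8.68 and 9.85. Within each library Psmg1 stood at 0.573, 0.664, 0.640 and 1.13 times Psmg2, and Psmg4 at 1.29, 1.40, 1.28 and 4.24 times Psmg3. Neither Psmg1 nor Psmg4 overlaps another gene in the RefSeq annotation.

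Of the base assembly chaperones, 2 of 3 were below MEFs in iPSCs, where all 4 core chaperones were above. Psmd9 was at 9.90, 9.14, 10.1 and 5.50 FPKM and Psmd10, also called gankyrin, at 12.4, 11.5, 11.9 and 8.63, each lowest in iPSCs and within the rule (-0.75 and -0.48). Psmd5 was at 34.7, 30.7, 34.5 and 38.4 FPKM. Relative to the complexes they build, the geometric mean of the core chaperones was 0.140 of that of the core in MEFs and 0.221 in iPSCs, and that of the base chaperones 0.222 and 0.144 of that of the base.

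Activators and the inhibitor were within the rule throughout. Psme1 was at 85.8 FPKM in MEFs, 75.4 on day 3, 70.9 on day 6 and 116 in iPSCs. Psme2, with which it forms a ring, was at 82.3, 94.4, 83.0 and 63.9 FPKM. Their ratio was 1.04 in MEFs, 0.798 on day 3, 0.854 on day 6 and 1.82 in iPSCs, so the partners were near parity in MEFs and farthest apart in iPSCs. A retrocopy of Psme2 had its own row, Psme2b-ps, at 2.51, 2.73 and 3.40 FPKM in the first 3 libraries and listed at 0 in iPSCs, so reads of Psme2 may be divided and its values are less certain. Psme1 overlaps another gene in the RefSeq annotation, Emc9, and the labelled library kit does not mark strand. The values of Psme1, and so the ratio, are also less certain. Psme3 was at 37.7, 36.6, 43.8 and 46.6 FPKM and Psme4 at 37.7, 42.6, 40.4 and 55.9. Psmf1 was at 17.0, 16.2, 20.8 and 20.4 FPKM.

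During the first days of induction no proteasome gene passed the rule. On day 3 against MEFs 0 of 45 compared did, as did 0.221% of all rows. On day 6 against day 3 it was 0 of 46 and 0.855% of all rows, and on day 6 against MEFs 0 of 46 and 1.35%. With so few calls over all rows, a count of 0 among 45 or 46 genes is near the background. With 1.5-fold in place of 2-fold, the counts were again 0 in all 3 comparisons, against 1.62%, 4.45% and 5.69% of all rows.

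Below the rule, most genes were above their day 3 value on day 6, while day 3 itself differed little from MEFs. On day 3, 17 of 45 were above MEFs (37.8%, against 46.2% of all rows), with a median of -0.03 beside -0.02 over all rows. Rescaling to the same sum gave 24 of 46 above and a median of 0.02, beside 0.04 over all rows. In the core, 12 of 14 genes were below MEFs as deposited, with a median of -0.06. Rescaling to the same upper quartile, by the median ratio and to the same sum put 3, 2 and 6 of the 14 above MEFs, against 2 as deposited. Of the 17 genes of the 19S particle, 9 were above MEFs, with a median of 0.02. On day 6, 38 of 46 were above day 3 (82.6%, against 47.4% of all rows), with a median of 0.13 beside -0.01. All 7 alpha ring and all 4 structural beta ring genes were among them, and under the 3 rescalings 38 to 40 of the 46 genes were above. Against MEFs, 35 of 46 were above on day 6 (76.1%, against 46.6% of all rows), with a median of 0.06 beside -0.02. Comparisons that share the day 3 library share its error, and that library was the shallowest.

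**Figure D4:**
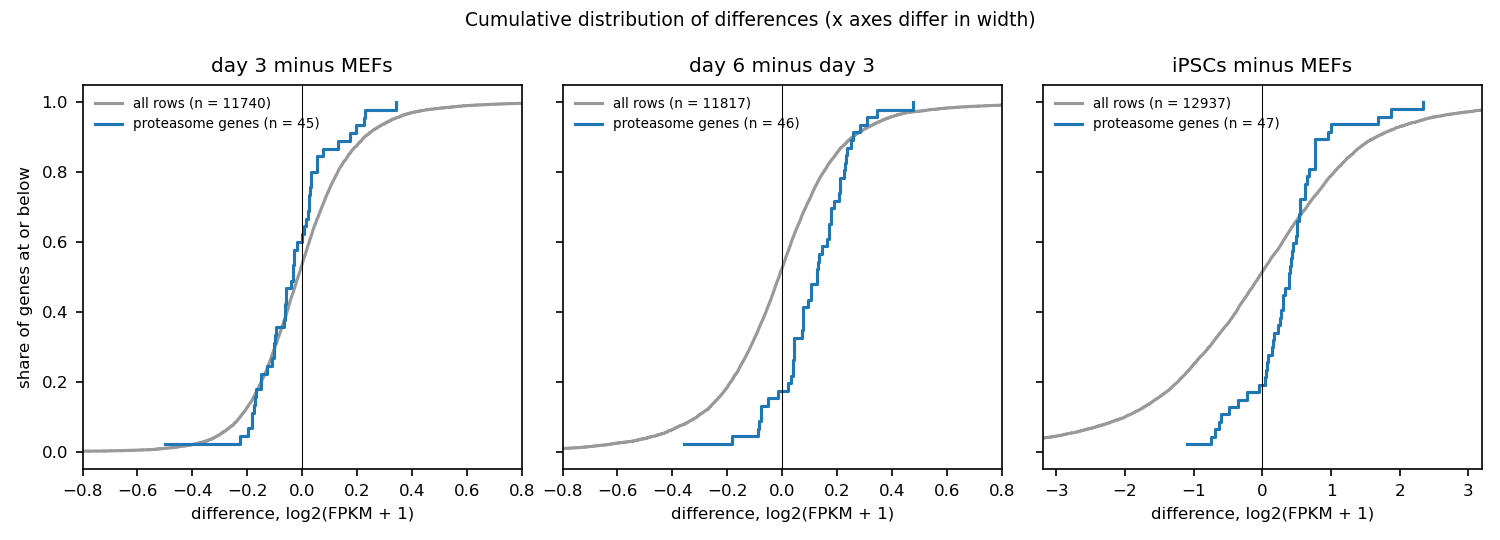
Cumulative share of genes at or below each difference on the log2(FPKM + 1) scale, for the proteasome genes (blue) and all rows compared (grey), in 3 comparisons whose x axes differ in width. The curves lie close for day 3 minus MEFs, and for day 6 minus day 3 the blue curve lies to the right, with a median of 0.13. For iPSCs minus MEFs it is steeper and centred at 0.40.

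Psmd13, a lid gene, was at 68.9 FPKM in MEFs, 87.7 on day 3 and 68.2 on day 6, the largest positive difference from MEFs on day 3 (0.34), and at 86.6 in iPSCs. It overlaps another annotated gene, Gm15542, and the labelled library kit does not mark strand. In all, 12 of the 48 genes overlap another gene in that annotation, and none of the 4 genes called in iPSCs is among them. Psmb8 had the largest negative difference on day 3 (-0.50). Psmg1 had the largest difference between day 6 and MEFs (0.40), and its values were in the order MEFs, day 3, day 6 and iPSCs. Among the 31 constitutive 26S genes, 23 had the highest of their first 3 values on day 6 (74.2%, against 34.2% of the 8161 rows at 10 FPKM or more). Their lowest was on day 3 in 20 (64.5%, against 28.6%). These counts are of values as deposited, and day 3 was the shallowest library. Rescaling to the same sum put 6 of 14 core and 11 of 17 19S genes above MEFs on day 3. As deposited and by the median ratio these were 2 and 9, so the count of lowest values depends on the scaling.

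Genes of proteins that act on or beside the proteasome were mostly within the rule. Of 10 further proteasome parts found, 1 was higher in iPSCs than in MEFs (10.0%, against 21.1% of all rows) and 0 were lower (against 25.0%), with a median of -0.15. The higher one was Uchl5, a deubiquitinase bound to the cap, at 6.35, 6.98, 7.23 and 15.2 FPKM in the MEF library, on day 3, on day 6 and in iPSCs. Adrm1, the receptor that holds it there, was at 35.1, 31.0, 31.9 and 33.7 FPKM, and Pomp, a chaperone of core assembly, at 90.2, 81.2, 84.7 and 97.7. AI314180, the older symbol of Ecpas, whose protein tethers core and cap, was at 30.7, 42.2, 43.3 and 16.5 FPKM, lower in iPSCs than on day 6 and within the rule against MEFs.

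Regulators of proteasome gene expression were not higher as a group. Nfe2l1, whose protein drives proteasome genes when the proteasome is impaired, was at 108, 114, 104 and 65.3 FPKM. Ngly1, the glycosidase needed to activate it, was at 14.3, 14.0, 14.5 and 3.84 FPKM and was lower in iPSCs. Ddi2, the protease that cuts it, was at 8.81, 10.1, 8.93 and 5.37 FPKM, within the rule. All 3 were thus lowest in iPSCs, as was Nfe2l2, at 47.8, 53.2, 59.0 and 37.6 FPKM. Foxo1 (4.22 and 5.78 FPKM in MEFs and iPSCs) and Nfe2l3 (2.08 and 2.61) were above MEFs in iPSCs, within the rule. Of the 7 regulators, 3 were above MEFs in iPSCs and 4 below. Foxo4 was at 3.78, 4.89, 2.85 and 11.2 FPKM and was the 1 of 7 regulators that was higher (14.3%, against 21.1% of all rows). Of 11 ubiquitin and shuttle genes reported 1, Ubqln4, was higher in iPSCs than in MEFs (15.2 and 46.8 FPKM in MEFs and iPSCs) and 0 were lower, a share of 9.09% higher against 21.1% of all rows. Against day 6, 2 of the 11 were higher (18.2%, against 20.4% of all rows), Ubqln4 and Rps27a, which encodes ubiquitin fused to a ribosomal protein. Rps27a was at 421, 357, 376 and 786 FPKM.

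**Figure D5:**
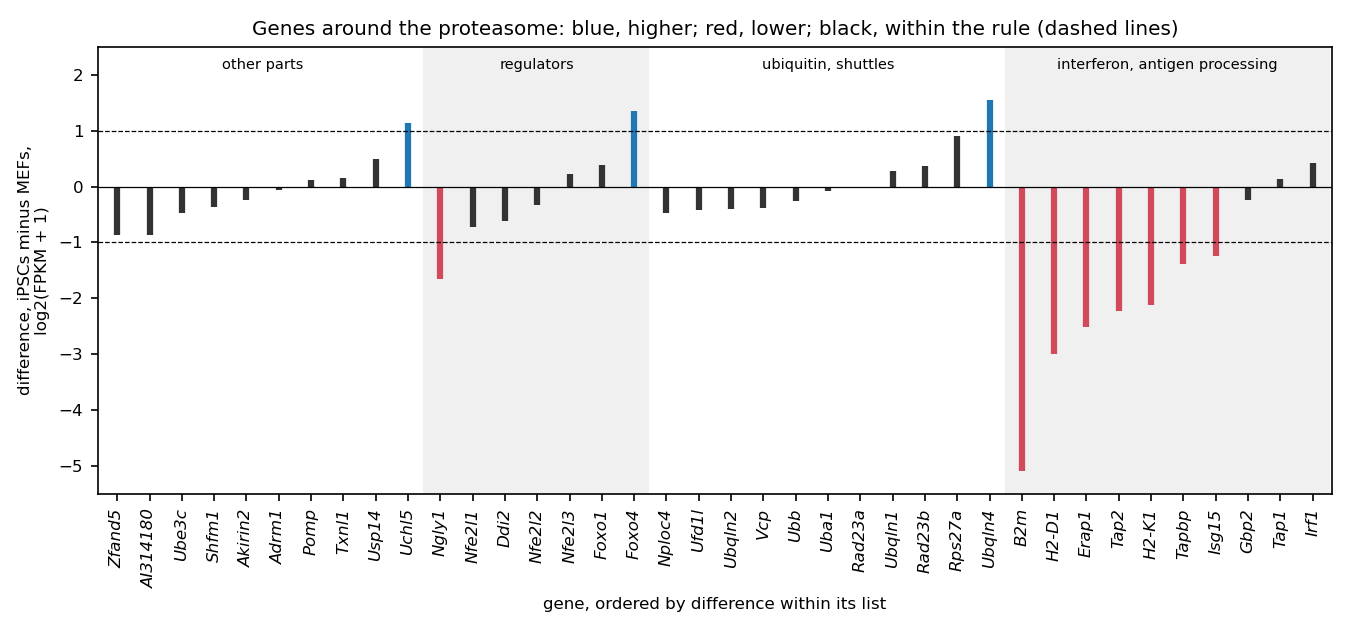
Difference between iPSCs and MEFs on the log2(FPKM + 1) scale for genes around the proteasome, in 4 lists, each sorted by difference, with the rule of size as dashed lines. In the interferon and antigen-processing list 7 of 10 bars pass the lower line, and in each of the other lists at most 1 bar passes the upper line and at most 1 the lower.

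Other large complexes, chosen for comparison after values were seen, had larger median differences in iPSCs. The 8 compared genes of the cytosolic chaperonin, a folding machine, had a median of 1.17 against MEFs, and 6 of them were higher, as were 21.1% of all rows. The 77 compared cytosolic ribosomal protein genes had a median of 0.81, and 19 were higher (24.7%), a share near that of all rows. Against day 6 their median was 0.97, and 32 of the 77 were higher (41.6%, against 20.4% of all rows). The constitutive 26S genes had a median of 0.40 against MEFs, and 0 of 31 were higher. Whether the sets differ was not tested, since each stage had 1 library.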

How the data were processed

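Long RNA libraries of 4 stages were analysed, 1 per stage, and the 4 small RNA samples were not analysed here. The authors deposited 1 table of FPKM values per gene, per the file headers. Per the submitters' processing notes, the tools were HISAT2 and Cufflinks and the build mm9. Their versions are not stated. Ribosomal RNA was removed, per the labels' protocols, and the library kit they name does not mark strand. The gene models, filters and sequencing depth are not stated there. Genes were matched to roles by symbol, a symbol on several rows being represented by its highest row. Differences were computed with Python 3.11.15, pandas 2.3.3 and NumPy 2.4.6, with a pseudocount of 1 FPKM. The rule was also run on simulated data, with large planted changes and little noise in well-expressed rows. That run checks the code and cannot measure the error of calls from single libraries. Every gene of the name rule, of the 4 pathway lists and of the marker lists could be named. The comparison complexes were chosen after values were seen, and members and lists were chosen with earlier results of these data known. Promoters are from RefSeq on GRCm38.p6, and no coordinates of the table are given. Of the pathway lists, 3 genes are not reported here. Other pseudocounts, fold rules, minimums, rescalings and row handling were tried.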

Additional observations from a re-analysis of the deposited data

How the results depend on the processing

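No paired analysis was possible because every stage is a single library, and no replicate could be left out for the same reason. The median of the members for day 3 against MEFs changed sign, from -0.03 to 0.02, when columns were rescaled to the same sum. All 40 medians over the members and all 435 medians of role groups shifted by less than a 1.5-fold change in expression. That measure lets small medians change in relative size or in sign. With columns rescaled to the same sum, the member median for day 6 against MEFs went from 0.06 to 0.17. That of the catalytic beta ring genes for day 3 against MEFs went from -0.03 to 0.03, and other role medians near 0 also changed sign. Of 100 counts, 85 stayed within 1.5 times their main value. The counts among MEFs, day 3 and day 6 have a main value of 0 and mostly stayed there. The share of 85 thus says little about the iPSC calls, where most of the 15 moved counts lie. These 15 follow. For iPSCs against MEFs (3 higher, 1 lower), each of the 3 rescalings gave 5 higher, adding Psmb6 and Psmb9. The 1.5-fold rule gave 13 higher and 5 lower, and the 4-fold rule 1 higher and 0 lower. A pseudocount of 5 or a minimum of 10 FPKM gave 0 lower, as Psmb8 then falls short. For iPSCs against day 6 (3 higher, 0 lower), the 1.5-fold rule gave 11 higher and 3 lower, the 4-fold rule 1 higher, and a pseudocount of 0.1 or rescaling to the same sum 1 lower. For day 6 against day 3 a pseudocount of 0.1 gave 1 higher. With 1 FPKM added to both genes of a pair, Psmb8 stood at 6.40% of Psmb5 at day 3 and 4.08% in iPSCs, and Psmb9 at 1.51% of Psmb6 in MEFs, 1.37% on day 3, 1.78% on day 6 and 1.55% in iPSCs, so that day 6 and not iPSCs was highest, since such low values are dominated by the addition. Values of Psmb8, Psmb9, Psmb11 and Psma8 are the least precise.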
